A study of Homo sapiens with 30 samples.

Results

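The genes described here are 37 genes of mitochondrial fatty acid oxidation and of the citric acid cycle, followed while human embryonic stem cells were turned into cardiomyocytes. They were taken from the tables by symbol alone and make up 37 of the 41495 entries of the time-course table. All 37 reached at least 1 FPKM, a level scaled by transcript length and library size, at 1 or more time points, as did 21715 entries in all.

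H7 human embryonic stem cells (hESC), an established line, and cells made from them were profiled by sequencing total RNA after removal of ribosomal RNA. For D1 the stem cell medium was replaced by RPMI1640 with B27 minus insulin and 12 µM CHIR99021, an inhibitor of the kinase GSK3 that activates WNT signalling, for 24 hours. Then came 2 days of 5 µM IWP4, which blocks WNT secretion, in the same insulin-free medium, and after that RPMI1640 with complete B27. The unsorted time points were D1, D2, D3, D4, D5, D6, D8, D10 and D15, the cardiomyocytes were taken on day 31 after a Percoll density gradient, and the untreated hESC are the start. PMESO cells were sorted on day 3 for the receptor ROR2 and are compared with ROR2-negative cells of that day. CMESO cells were sorted on day 4 for ROR2 and PDGFRa and are compared with ROR2-positive, PDGFRa-negative cells of that day. Each group has 2 libraries, all from 1 cell line, and the labels do not say whether they came from separate cultures. The time-course table gives 1 value per gene and time point, so no error can be set beside a time-course level, and a difference there is a description without a test.

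Mitochondria burn fatty acids in a repeating spiral. A fatty acid is joined to coenzyme A, carried across the inner membrane as a carnitine ester, and shortened step by step to acetyl-CoA, which the citric acid cycle oxidizes. The adult heart draws most of its energy from this route, whereas pluripotent stem cells and the fetal heart rely more on glucose and lactate.

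Cardiomyocyte and stem cell markers followed the labels, and the columns differed in scale. All 8 cardiomyocyte markers (among them TNNT2, 2785 FPKM in the cardiomyocytes and 4.50 FPKM in hESC) were at least 2-fold higher in the cardiomyocytes than in hESC, and all 5 stem cell markers were lower, with summed levels of 4.90 and 2598 FPKM. All 5 adipocyte markers stayed below 1 FPKM throughout. Of 6 hepatic endoderm markers, 3 were at least 2-fold higher in the cardiomyocytes than in hESC and 0 lower. ALB had 17.8 FPKM in the cardiomyocytes, 0.952 at D15 and 0.0904 in hESC, and AFP had 16.1, 17.7 and 0.997 FPKM. All 6 stroma and fibroblast markers were at least 2-fold higher in the cardiomyocytes than in hESC, with sums of 1104 and 49.1 FPKM. The part of hepatic or stromal cells in the members' differences was not tested. Genes of at least 5 FPKM in every column (7386) sat low at D15 (a shift of -0.53 on the log2 scale) and high at D1 (0.29) against the average column. Relative depth was estimated roughly, from the most common ratio to D1 among genes of very low level. It was lowest at D15 (0.532 of that at D1), where 165 of 4984 such genes had that ratio. Between the columns compared, the shift was -0.21 for cardiomyocytes over hESC, 0.20 for D1 over hESC, -0.35 for D4 over D1, -0.47 for D15 over D10 and 0.42 for cardiomyocytes over D15. Rescaled columns remove this shift, and the counts of members in each comparison are given with them as well. Counts of other lists are as deposited only. In bulk RNA, fewer cells of a type and less RNA per cell cannot be told apart.

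As deposited, the set summed highest at D1 and in the cardiomyocytes and lowest at D4 and D5. The summed level of the 37 genes was 1565 FPKM in hESC, 1895 at D1, 1578 at D2, 1141 at D3, 1033 at D4, 1026 at D5, 1405 at D6, 1483 at D8, 1373 at D10, 1236 at D15 and 1846 in the cardiomyocytes. With rescaled columns it was 1461 FPKM in hESC, 1545 at D1, 1049.7 at D3, 1071 at D4, 1067 at D5, 1788 at D15 and 1998 in the cardiomyocytes. The high sum at D1 was not shared by the whole set. As deposited, ACSL1, ACSL3 and ACSL4 together summed to 126 FPKM in hESC and 372 at D1. The median member differed between D1 and hESC by 0.11 on the log2 scale, or by -0.03 with rescaled columns. Of the 37, 13 had their highest level at D1, 12 in the cardiomyocytes and 6 in hESC, while 8 had their lowest at D4, 8 at D15 and 6 at D5. Over all 21715 genes, 15.2% were highest at D1, 17.1% in the cardiomyocytes and 17.5% in hESC, while 3.32% were lowest at D4, 21.1% at D15 and 2.95% at D5. Of protein-coding genes that reached 10 FPKM, 23.1% were highest at D1, 17.8% in the cardiomyocytes and 18.9% in hESC. The lowest value lay at D4 for 3.62% of them, at D15 for 37.9% and at D5 for 3.50%. The column of the highest value depended on the scale. With rescaled columns 5 members were highest at D1 (9.04% of all genes), 9 at D15 (28.4%), against 1 as deposited, and 12 in the cardiomyocytes (14.8%), of which 9 were also highest there as deposited. The lowest values then lay at D4 for 9 members (3.02% of all genes), at D15 for 3 (9.49%) and at D5 for 3 (2.89%). In all, 16 members changed their highest column and 11 their lowest. Levels below are as deposited unless called rescaled. Over the 11 columns 34 of the 37 ranged at least 2-fold (91.9%), against 84.7% of all genes. Of protein-coding genes that reached 10 FPKM, 89.4% did. The median log2 range was 1.58 for the members, 1.57 for all genes and 1.84 for those protein-coding genes.

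Between the ends of the course, more members were higher than lower. Genes are called higher or lower where log2(FPKM + 1) differed by 1 or more, which is 2-fold on a scale that understates the differences of low genes. By this rule 11 members were higher in the cardiomyocytes than in hESC (18.7% of all genes were) and 1 was lower (16.9% of all genes). The 11 are CD36, ACSL1, CPT1A, CPT2, ACADL, ACADM, HADH, DECR1, ETFB, IDH2 and IDH3A, and the lower one is ACAA2. The median member differed by 0.30, against 0.03 over all genes. With rescaled columns 13 were higher (22.3% of all genes) and 1 lower (13.9%). HADHB, just outside the threshold as deposited, differed by 0.98.

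The steps of the course ran in different directions. At D1, 7 members were higher than in hESC (12% of all genes) and 4 lower (11.1%), and with rescaled columns 6 were higher (8.63%) and 4 lower (13.1%). At D4, 2 were higher than at D1 (9.19%) and 13 lower (11.9% of all genes, 18.4% of 9844 protein-coding genes that reached 10 FPKM). The 13 include ACSL1, ACSL3, ACSL4, CPT1A, HADHA, ACAA2 and 6 of the 12 genes listed under the citric acid cycle, cytosolic MDH1 among them. With rescaled columns 3 were higher (13.3%) and 7 lower (6.97% of all genes, 10.2% of those protein-coding genes). From D4 on the sign turned: at D10, 4 members were at least 2-fold higher than at D4 (5.49% of all genes) and 0 lower (3.35%), and 33 of 37 stood above their D4 level, against 47.4% of all genes. With rescaled columns 4 were higher (5.66%), 0 lower (3.38%) and 33 above their D4 level (47.9%). As deposited, the median member at D10 differed by 0.36 from D4 but by 0.08 from D3. At D15, 1 member was higher than at D10 (6.32%), CD36, and 2 were lower (9.51%), LPL and ECHS1. With rescaled columns 1 was higher (14.5% of all genes) and 0 were lower (3.4%). The median member then differed by 0.27, in place of -0.19 as deposited, against 0.26 and -0.04 over all genes. Over protein-coding genes that reached 10 FPKM the medians were 0.07 and -0.37.

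In the cardiomyocytes, 5 members were higher than at D10 (8.14% of all genes), namely CD36, CPT1A, DECR1, IDH3A and MDH1, and 1 was lower (4.61%), LPL. The median member differed by 0.38, against 0 over all genes, and 27 of the 37 stood above their D10 level, against 49.9% of all genes. With rescaled columns 6 were higher (8.81%) and 1 lower (4.25%). Against D15, 3 members were higher in the cardiomyocytes (7.23%) and 0 lower (4.07%), and 33 of 37 stood above their D15 level (57.6% of all genes). The D15 column sat low for most genes: 74.2% of well expressed protein-coding genes also stood above D15, and after rescaling 26 members did, against 51.8% of those genes, with 1 member 2-fold higher (2.58% of all genes) and 1 lower (9.75%). The make-up of the cells differed too. The 6 stroma and fibroblast markers summed to 1104 FPKM in the purified cardiomyocytes and 3375 FPKM at D15 (0 higher, 5 lower), and the 8 cardiomyocyte markers to 12244 and 7728 FPKM (4 higher, 0 lower). The part of cell make-up in the members' differences was not tested.

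**Figure D1:**
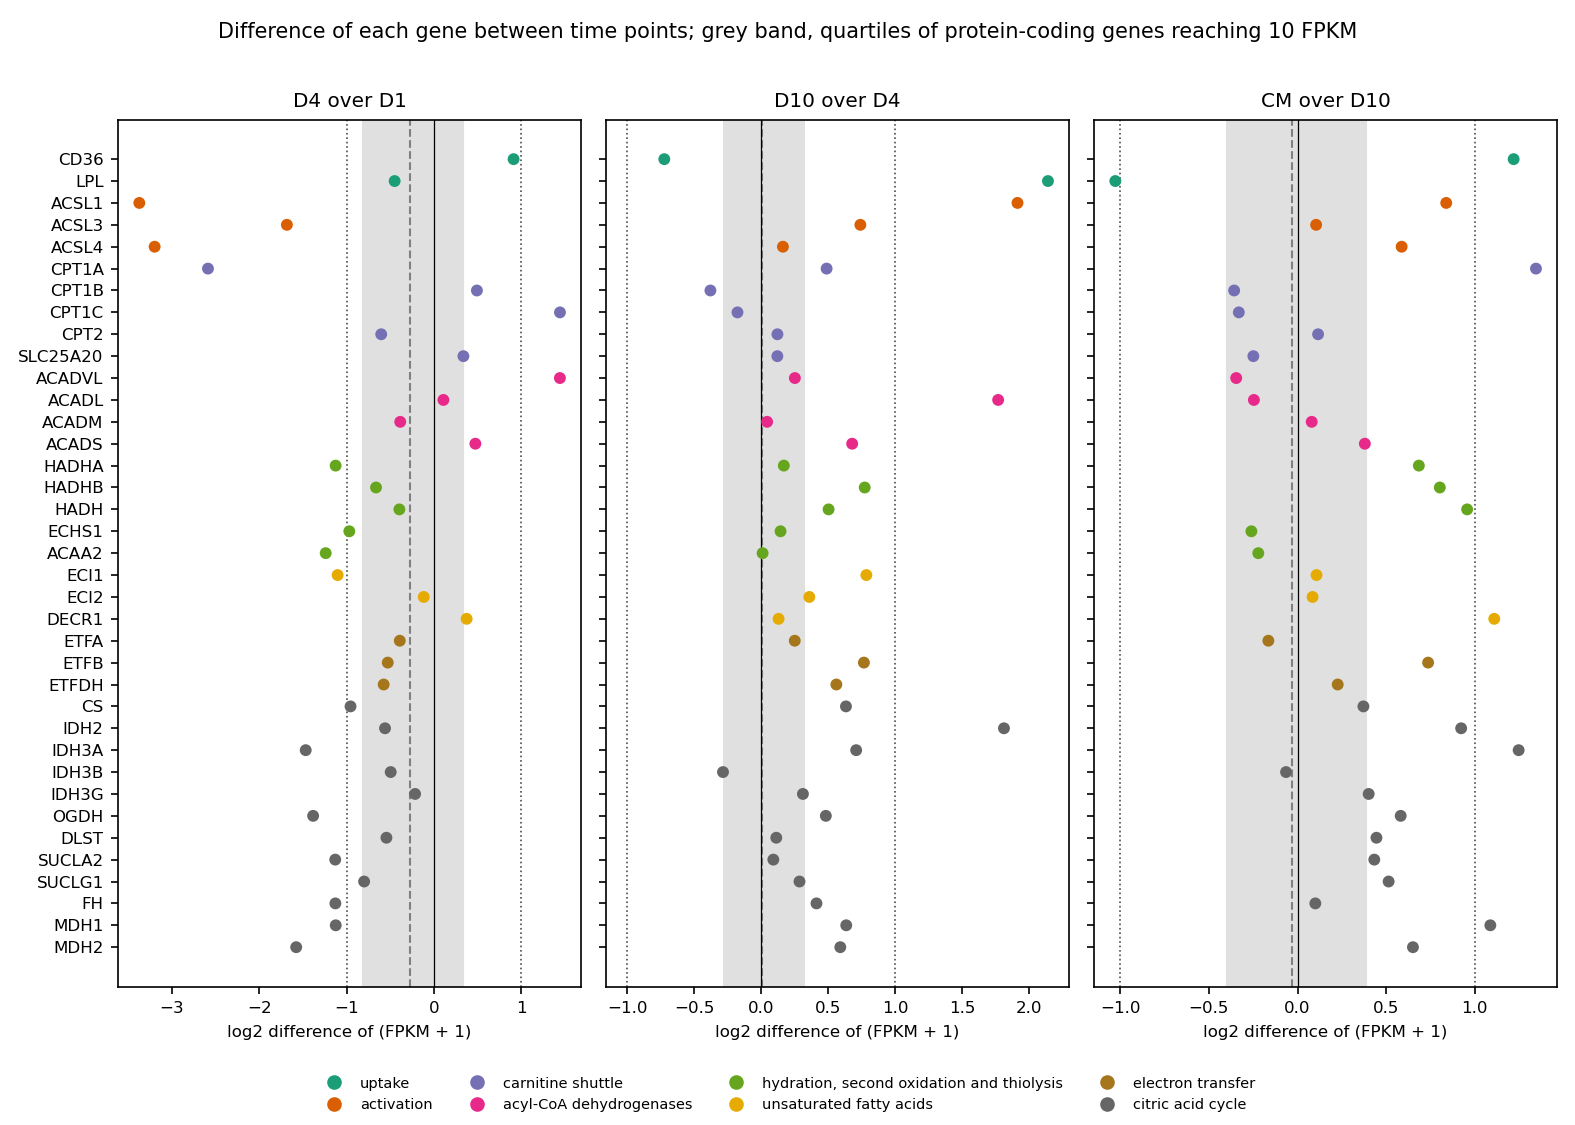
Differences in log2(FPKM + 1) of the 37 genes, grouped by role, for D4 over D1, D10 over D4 and the cardiomyocytes of day 31 (CM) over D10, with 1 point per gene. Dotted lines mark 2-fold, the grey band and dashed line the quartiles and median of protein-coding genes that reached 10 FPKM. For D4 over D1 13 points lie past 2-fold on the low side, and for D10 over D4 33 of 37 lie above 0.

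Uptake genes were low throughout. CD36, a membrane receptor that takes up long-chain fatty acids, stood at 0.630 in hESC, 0.511 at D1, 0.499 at D2, 1.59 at D3, 1.84 at D4, 0.920 at D5, 0.384 at D6, 0.707 at D8, 0.721 at D10, 2.81 at D15 and 3.01 FPKM in the cardiomyocytes. The cardiomyocyte and D15 values were the highest of the course, yet both were below those of most members. LPL, the lipase that frees fatty acids from lipoproteins, stood at 3.97 in hESC, 0.715 at D1, 0.587 at D2, 0.308 at D3, 0.255 at D4, 2.15 at D5, 8.15 at D6, 3.93 at D8, 4.54 at D10, 1.29 at D15 and 1.71 FPKM in the cardiomyocytes. LPL was highest at D6 and lowest at D4, and the cardiomyocytes were lower than D10 by a log2 difference of -1.03.

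The acyl-CoA synthetases, which join fatty acids to coenzyme A, shared a high value at D1. ACSL1, the main form in adult heart, stood at 3.34 in hESC, 38.3 at D1, 6.14 at D2, 1.98 at D3, 2.79 at D4, 5.98 at D5, 16.4 at D6, 16.4 at D8, 13.3 at D10, 11.4 at D15 and 24.6 FPKM in the cardiomyocytes. Its D1 value was at least 2-fold above both neighbours, as was that of ACSL4, and its cardiomyocyte value was the second highest. Of all 21715 genes, 239 stood above both neighbours in this way at D1. ACSL4, which prefers polyunsaturated fatty acids such as arachidonic acid, had 66.8 FPKM in hESC, 235 at D1, 96.7 at D2 and between 21.9 and 42.3 FPKM from D3 onwards. ACSL3, found on the endoplasmic reticulum and on lipid droplets, stood at 55.7 in hESC, 98.4 at D1, 65.1 at D2, 47.3 at D3, 29.9 at D4, 42.1 at D5, 42.3 at D6, 50.1 at D8, 50.7 at D10, 69.0 at D15 and 54.6 FPKM in the cardiomyocytes. With rescaled columns ACSL3 had 80.2 FPKM at D1 and was highest at D15, with 99.9 FPKM. In the shares of these 3 genes, ACSL1 held 2.65% of their summed FPKM in hESC, 10.3% at D1, 2.40% at D3 and 20.2% in the cardiomyocytes, while ACSL4 held 63.3% at D1 and 34.8% in the cardiomyocytes.

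**Figure D2:**
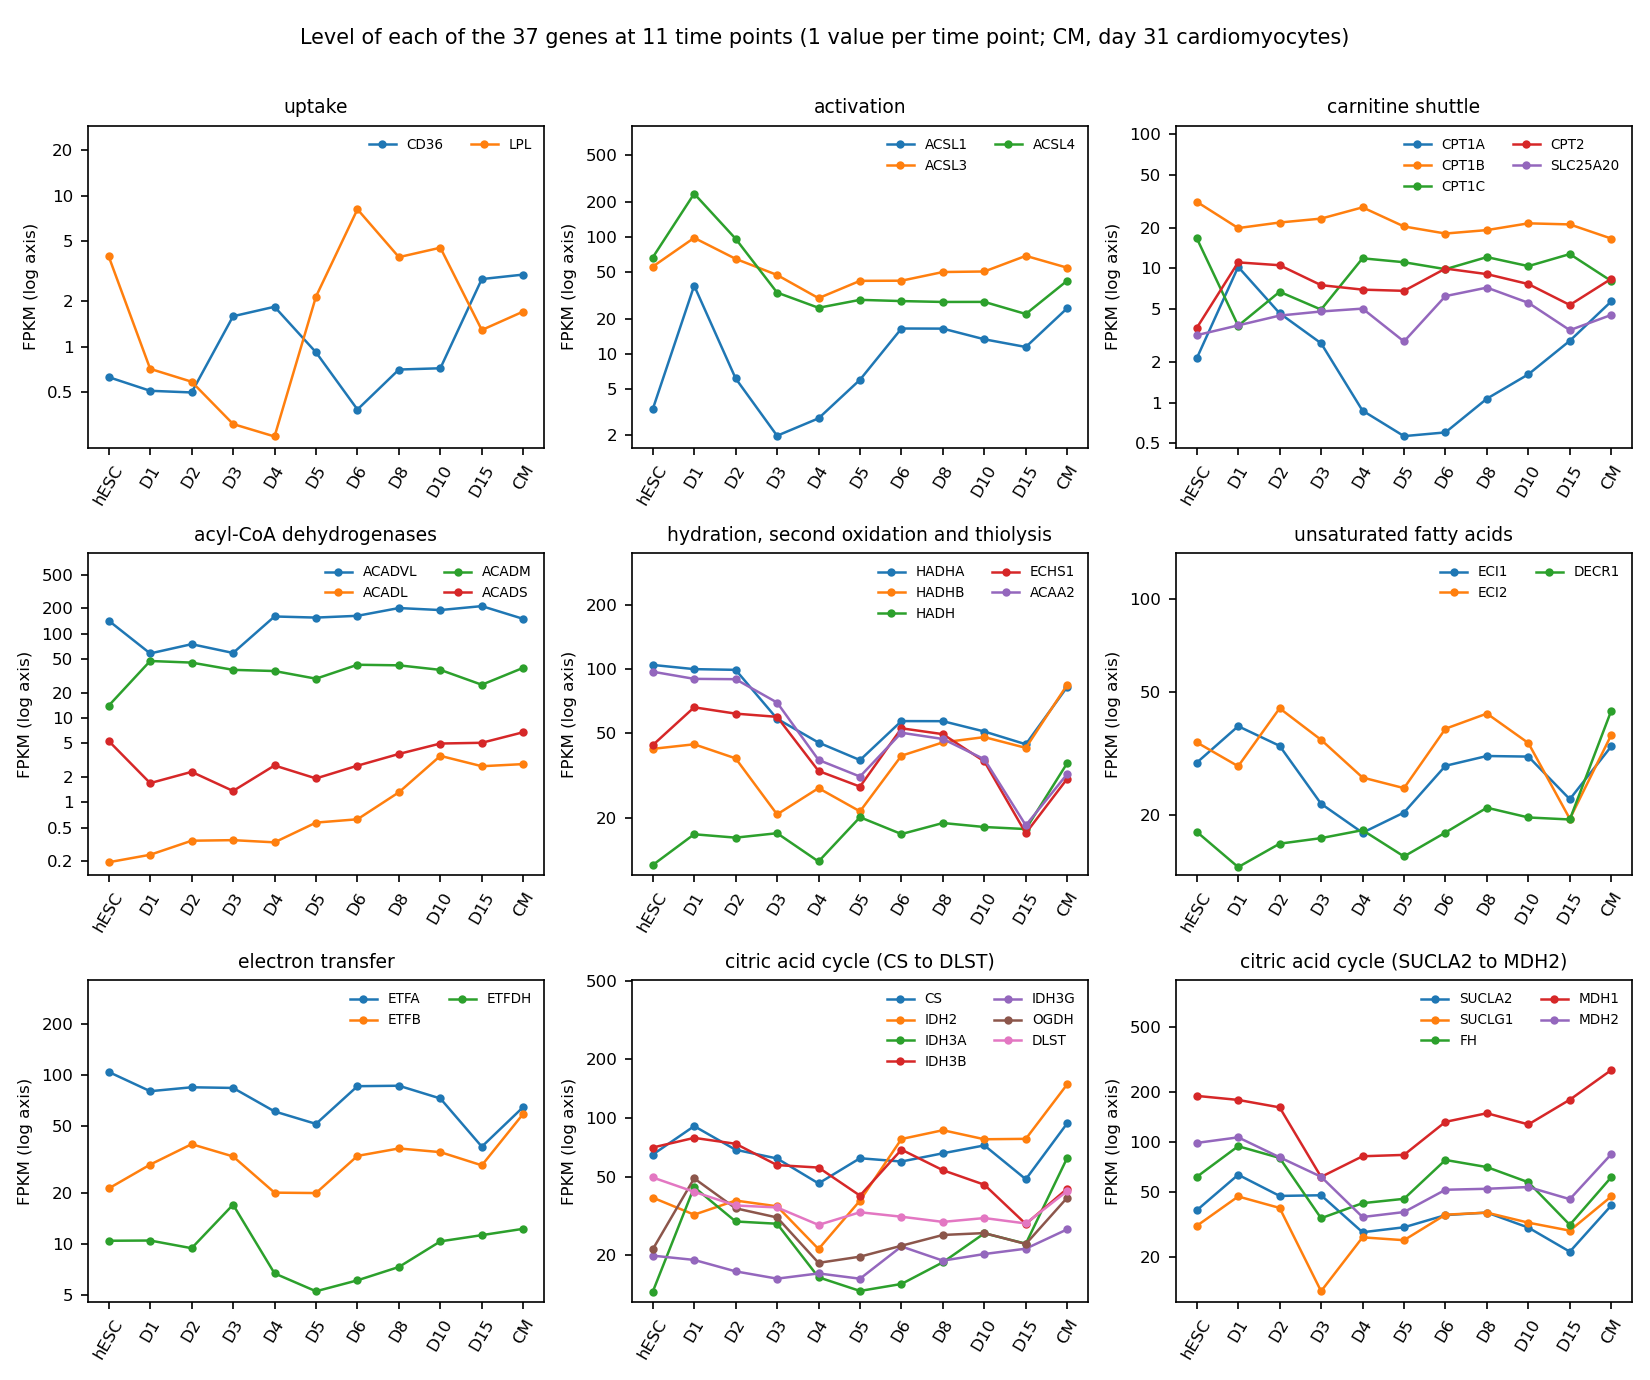
FPKM of each of the 37 genes at the 11 time points (hESC, D1 to D15 and CM, the cardiomyocytes of day 31), on a log axis, in 1 panel per role. ACSL1 and ACSL4 peak at D1, SUCLG1 dips at D3, and IDH2, IDH3A and MDH1 are highest in the cardiomyocytes.

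The carnitine shuttle differed between its forms. CPT1A and CPT1B make the carnitine ester at the outer membrane, the step that malonyl-CoA inhibits. CPT1A, the liver form, which the fetal heart also uses, stood at 2.14 in hESC, 10.3 at D1, 4.64 at D2, 2.78 at D3, 0.876 at D4, 0.566 at D5, 0.603 at D6, 1.08 at D8, 1.63 at D10, 2.90 at D15 and 5.69 FPKM in the cardiomyocytes. It held 4.26% of the summed CPT1 level in hESC, 30.2% at D1, 1.76% at D5 and 18.7% in the cardiomyocytes. CPT1B, the muscle form, ranged only from 16.7 FPKM in the cardiomyocytes to 31.4 FPKM in hESC. Its order in time depended on the scale of the columns, since rescaled values were 18.1 FPKM in the cardiomyocytes, 29.3 in hESC, 16.3 at D1, the lowest, and 30.8 at D15, the highest. Its values have a further limit. In GENCODE 29, CPT1B shares 66.4% of its exonic bases with the read-through gene CHKB-CPT1B (4.70 FPKM in the cardiomyocytes, 2.49 FPKM in hESC). The split of fragments between them is thus uncertain. CPT1B held 54.8% to 75.3% of the summed CPT1 level, so this limit holds for the CPT1 shares too. CPT1C, the neuronal form, had 8.07 FPKM in the cardiomyocytes, 3.75 FPKM at D1 and 16.8 FPKM in hESC. CPT2, which rebuilds the coenzyme A ester inside, stood at 3.61 in hESC, 11.1 at D1, 10.6 at D2, 7.52 at D3, 6.96 at D4, 6.82 at D5, 9.98 at D6, 9.08 at D8, 7.66 at D10, 5.35 at D15 and 8.38 FPKM in the cardiomyocytes. CPT2 was lowest in hESC, and its log2 difference between cardiomyocytes and hESC was 1.03. SLC25A20, the carnitine carrier of the inner membrane, ranged from 2.86 FPKM at D5 to 7.21 FPKM at D8.

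The acyl-CoA dehydrogenases start each turn of the spiral and are told apart by chain length. ACADVL, for very long chains, was the most abundant, with 143 FPKM in hESC, 58.3 at D1, 59.0 at D3, 160.0 at D4, 212 at D15 and 149.8 FPKM in the cardiomyocytes. It was 1 of only 2 members, with CPT1C, that were at least 2-fold higher at D4 than at D1. ACADM, the medium-chain enzyme, stood at 14.0 in hESC, 47.4 at D1, 45.4 at D2, 37.2 at D3, 36.0 at D4, 29.2 at D5, 42.8 at D6, 42.1 at D8, 37.2 at D10, 24.8 at D15 and 39.4 FPKM in the cardiomyocytes. ACADM was lowest in hESC and highest at D1, or in the cardiomyocytes with rescaled columns. ACADL, the long-chain enzyme, stood at 0.194 in hESC, 0.238 at D1, 0.349 at D2, 0.355 at D3, 0.334 at D4, 0.573 at D5, 0.627 at D6, 1.31 at D8, 3.55 at D10, 2.67 at D15 and 2.83 FPKM in the cardiomyocytes. It was below 1 FPKM through D6 and was the lowest of the 4 dehydrogenases at every time point. ACADS, for short chains, ranged from 1.36 FPKM at D3 to 6.77 FPKM in the cardiomyocytes.

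The following steps hydrate, oxidize and cleave the chain. HADHA and HADHB encode the alpha and beta subunits of the trifunctional protein, which does all of this for long chains. HADHA had 104 FPKM in hESC, 99.7 at D1, 37.4 at D5, 50.9 at D10 and 82.4 FPKM in the cardiomyocytes. HADHB had 42.2 FPKM in hESC, 44.3 at D1, 20.8 at D3, 47.9 at D10 and 84.3 FPKM in the cardiomyocytes. The alpha subunit was thus highest in hESC and the beta subunit in the cardiomyocytes. HADH, the hydroxyacyl-CoA dehydrogenase for shorter chains, stood at 12.0 in hESC, 16.8 at D1, 16.2 at D2, 17.0 at D3, 12.5 at D4, 20.2 at D5, 16.8 at D6, 19.0 at D8, 18.2 at D10, 17.8 at D15 and 36.2 FPKM in the cardiomyocytes. All values but the last lay within 12.0 to 20.2 FPKM, and the log2 difference between the cardiomyocytes and D10, just under the threshold, was 0.96. ACAA2, the thiolase that cleaves medium-chain products, went the other way and stood at 97.0 in hESC, 89.8 at D1, 89.4 at D2, 69.5 at D3, 37.4 at D4, 31.3 at D5, 50.2 at D6, 46.9 at D8, 37.7 at D10, 18.5 at D15 and 32.2 FPKM in the cardiomyocytes. It was lowest at D15, and its log2 difference between cardiomyocytes and hESC was -1.56. ECHS1, the short-chain enoyl-CoA hydratase, was likewise lowest at D15, with 43.9 FPKM in hESC, 66.0 at D1, 36.8 at D10, 17.0 at D15 and 30.6 FPKM in the cardiomyocytes.

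Unsaturated fatty acids need helper enzymes that move or reduce double bonds. DECR1, a dienoyl-CoA reductase, stood at 17.6 in hESC, 13.5 at D1, 16.1 at D2, 16.8 at D3, 17.8 at D4, 14.6 at D5, 17.5 at D6, 21.0 at D8, 19.6 at D10, 19.3 at D15 and 43.4 FPKM in the cardiomyocytes. The 10 earlier columns lay within 13.5 to 21.0 FPKM and only the cardiomyocytes stood above them, with a log2 difference of 1.11 over D10. The enoyl-CoA isomerases ECI1 and ECI2 ranged from 17.5 to 38.7 FPKM and from 19.4 to 44.2 FPKM over the course, and neither was 2-fold different in the cardiomyocytes from hESC, D10 or D15.

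Electrons from the dehydrogenases pass through the electron transfer flavoprotein, a dimer of ETFA and ETFB. ETFA stood at 104 in hESC, 80.0 at D1, 84.4 at D2, 83.6 at D3, 60.8 at D4, 51.3 at D5, 85.7 at D6, 86.2 at D8, 72.5 at D10, 37.6 at D15 and 64.5 FPKM in the cardiomyocytes. ETFB stood at 21.3 in hESC, 29.4 at D1, 38.9 at D2, 32.9 at D3, 20.1 at D4, 20.0 at D5, 33.2 at D6, 36.7 at D8, 34.9 at D10, 29.2 at D15 and 58.8 FPKM in the cardiomyocytes. ETFA was highest in hESC and ETFB in the cardiomyocytes. ETFDH, the oxidoreductase that hands the electrons to ubiquinone, ranged from 5.25 FPKM at D5 to 17.1 FPKM at D3. PPID, a neighbour on the opposite strand that shares 10.9% of ETFDH exonic bases, had 70.1 FPKM at D3 and 78.6 FPKM at D1, where ETFDH stood at 10.47 FPKM. The strand setting of the counting is not given in the sources used here.

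Among the genes of the citric acid cycle, the isocitrate dehydrogenases IDH2 and IDH3A ranged most over time. IDH2, the NADP-dependent mitochondrial enzyme, stood at 39.2 in hESC, 32.1 at D1, 37.8 at D2, 35.4 at D3, 21.4 at D4, 37.8 at D5, 77.9 at D6, 86.4 at D8, 77.7 at D10, 78.1 at D15 and 148 FPKM in the cardiomyocytes. It was lowest at D4, at least 77.7 FPKM from D6 on, and highest in the cardiomyocytes, with log2 differences of 1.89 over hESC and 1.81 for D10 over D4. IDH3A, the catalytic alpha subunit of the NAD-dependent enzyme that drives the cycle, stood at 12.9 in hESC, 44.3 at D1, 29.6 at D2, 28.8 at D3, 15.4 at D4, 13.1 at D5, 14.2 at D6, 18.3 at D8, 25.7 at D10, 22.8 at D15 and 62.5 FPKM in the cardiomyocytes. Its log2 difference was 2.19 for the cardiomyocytes over hESC and 1.25 over D10. A limit holds here as well: 38.2% of IDH3A exonic bases overlap ACSBG1 on the opposite strand, and ACSBG1 stood at 9.04 FPKM in the cardiomyocytes and 4.10 FPKM at D10. IDH3B, a partner subunit, was lowest at D15 (28.7 FPKM) and highest at D1 (79.0 FPKM, or in hESC with rescaled columns). IDH3G, the other partner, ranged from 15.1 FPKM at D5 to 27.0 FPKM in the cardiomyocytes, with rescaled values of 29.2 FPKM in the cardiomyocytes and 31.1 FPKM at D15. SSR4, on the opposite strand, shares 10.2% of IDH3G exonic bases and had 68.8 FPKM in the cardiomyocytes and 105 FPKM in hESC.

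The malate dehydrogenases differed by compartment. MDH1, the cytosolic enzyme of the malate-aspartate shuttle, stood at 191 in hESC, 180.1 at D1, 162 at D2, 61.5 at D3, 82.0 at D4, 83.6 at D5, 133 at D6, 149.6 at D8, 128 at D10, 181 at D15 and 273 FPKM in the cardiomyocytes. It was the most abundant of all 37 genes in the cardiomyocytes and was lowest at D3, and its log2 difference between cardiomyocytes and D10 was 1.09, just inside the threshold. MDH2, the mitochondrial enzyme of the cycle, stood at 98.8 in hESC, 107 at D1, 80.9 at D2, 61.6 at D3, 35.1 at D4, 37.6 at D5, 51.4 at D6, 52.1 at D8, 53.4 at D10, 45.1 at D15 and 84.4 FPKM in the cardiomyocytes. MDH2 was highest at D1, or in hESC with rescaled columns, and lowest at D4.

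The remaining enzymes of the cycle were mostly highest at D1 or in the cardiomyocytes. SUCLG1, the alpha subunit shared by both succinyl-CoA ligases, stood at 31.03 in hESC, 46.8 at D1, 39.9 at D2, 12.5 at D3, 26.5 at D4, 25.4 at D5, 36.3 at D6, 37.3 at D8, 32.5 at D10, 29.04 at D15 and 46.8 FPKM in the cardiomyocytes. Its D3 value was at least 2-fold below both neighbouring time points, the only such dip among the 37 genes. At D3, 349 of all 21715 genes dipped in this way, and 240 of the 9844 protein-coding genes that reached 10 FPKM. SUCLA2, the ADP-specific beta subunit, had 47.2 FPKM at D2, 47.6 at D3 and 28.4 FPKM at D4 and showed no such dip. FH, fumarase, stood at 61.5 in hESC, 94.4 at D1, 80.1 at D2, 34.5 at D3, 42.6 at D4, 45.3 at D5, 77.9 at D6, 70.5 at D8, 57.1 at D10, 31.5 at D15 and 61.2 FPKM in the cardiomyocytes. DLST, the succinyltransferase of the oxoglutarate dehydrogenase complex, stood at 49.6 in hESC, 41.9 at D1, 35.7 at D2, 34.9 at D3, 28.4 at D4, 33.0 at D5, 31.3 at D6, 29.4 at D8, 30.8 at D10, 28.9 at D15 and 42.3 FPKM in the cardiomyocytes. OGDH, the first enzyme of that complex, had 21.3 FPKM in hESC, 49.1 at D1, 18.2 at D4 and 39.2 FPKM in the cardiomyocytes. CS, citrate synthase, ranged from 46.3 FPKM at D4 to 93.9 FPKM in the cardiomyocytes. The 12 listed cycle genes summed to 699 FPKM in hESC, 847 at D1, 416 at D4, 599 at D10 and 964 in the cardiomyocytes. They include MDH1, which is cytosolic, and IDH2, which is NADP-dependent. MDH1 and IDH2 had 273 and 148 FPKM in the cardiomyocytes and 191 and 39.2 FPKM in hESC.

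Subunits of 1 enzyme did not keep a fixed ratio. Ratios within a column do not depend on the scale of that column. HADHB over HADHA was 0.404 in hESC, 0.356 at D3, 0.612 at D4, 0.941 at D10, 0.962 at D15 and 1.02 in the cardiomyocytes. IDH3A over IDH3B was 0.184 in hESC, 0.561 at D1, 0.206 at D6, 0.565 at D10, 0.793 at D15 and 1.44 in the cardiomyocytes, which made the alpha subunit the more abundant only there. IDH3G over IDH3B was 0.281 in hESC, 0.223 at D2, 0.748 at D15 and 0.620 in the cardiomyocytes. ETFB over ETFA was 0.205 in hESC, 0.331 at D4, 0.482 at D10 and 0.912 in the cardiomyocytes. All 4 ratios were above their hESC value in the cardiomyocytes, and those of HADHB to HADHA, IDH3A to IDH3B and ETFB to ETFA were highest there. FPKM is per length, but it depends on the transcript length assumed for each gene, so the distance of such a ratio from 1 is less firm than its course. The overlaps of IDH3A and IDH3G with genes on the opposite strand limit their ratios too.

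**Figure D3:**
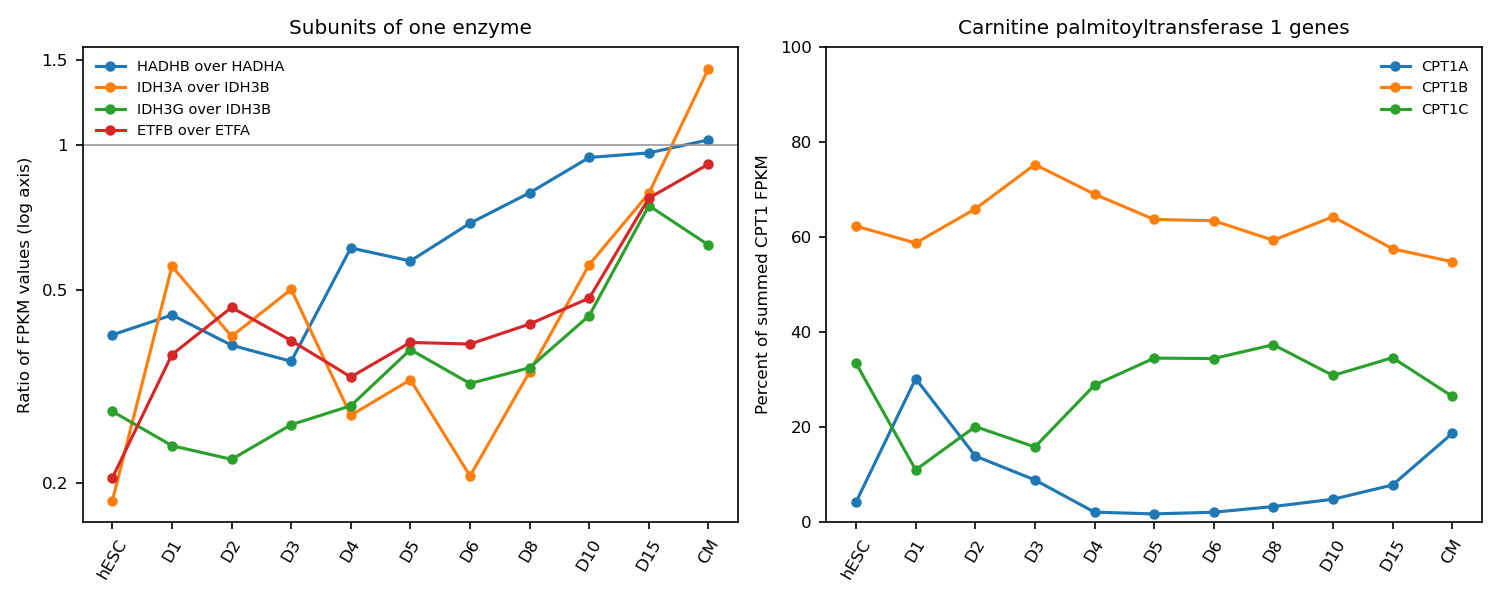
Left, ratios of the FPKM of partner subunits at the 11 time points (CM, the cardiomyocytes of day 31), on a log axis with a line at 1. Right, the percent of the summed CPT1 FPKM held by each CPT1 gene, with the uncertain CPT1B level in the sum. IDH3A over IDH3B spans 0.184 in hESC to 1.44 in CM, and the CPT1A share is 30.2% at D1, 1.76% at D5 and 18.7% in CM.

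The upstream sequences of these partner genes are shown because the subunits diverged in level. The 250 bases before the RefSeq start (GRCh38.p14) are printed on the strand of the gene, with motif matches in capitals, namely GCGCNTGCG, the core of the NRF1 element, CCAATC, the box bound by NF-Y, or AGGTCA, the half-site of nuclear receptors such as PPAR and RXR, each sought on both strands. HADHA and HADHB lie head to head, with 307 bases between their starts, so the HADHB window (chr2:26244689-26244938, plus strand) also lies upstream of HADHA. The other windows are those of IDH3A (chr15:78149112-78149361, plus strand), IDH3B (chr20:2664217-2664466, minus strand) and IDH3G (chrX:153794376-153794625, minus strand).
HADHB: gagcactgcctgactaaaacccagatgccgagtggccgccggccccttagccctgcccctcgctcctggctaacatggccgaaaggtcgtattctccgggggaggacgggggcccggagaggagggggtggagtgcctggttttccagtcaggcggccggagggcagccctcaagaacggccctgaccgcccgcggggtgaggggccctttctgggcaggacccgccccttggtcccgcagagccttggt
IDH3A: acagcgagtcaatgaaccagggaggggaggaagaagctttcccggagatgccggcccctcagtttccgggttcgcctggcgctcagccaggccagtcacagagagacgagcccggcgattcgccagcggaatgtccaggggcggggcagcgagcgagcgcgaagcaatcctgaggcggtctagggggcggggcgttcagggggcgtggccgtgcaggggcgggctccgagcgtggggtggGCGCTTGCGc
IDH3B: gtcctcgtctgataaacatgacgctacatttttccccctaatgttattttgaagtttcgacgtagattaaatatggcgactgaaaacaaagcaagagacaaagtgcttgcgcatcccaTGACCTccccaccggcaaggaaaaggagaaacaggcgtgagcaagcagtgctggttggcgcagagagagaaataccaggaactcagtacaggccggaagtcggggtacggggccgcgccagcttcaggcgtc
IDH3G: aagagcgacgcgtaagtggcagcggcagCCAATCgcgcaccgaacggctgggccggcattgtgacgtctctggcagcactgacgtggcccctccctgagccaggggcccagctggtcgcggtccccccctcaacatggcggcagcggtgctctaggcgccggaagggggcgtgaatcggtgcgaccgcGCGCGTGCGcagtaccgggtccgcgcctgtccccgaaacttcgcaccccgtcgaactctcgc
The IDH3A and IDH3G windows hold the NRF1 core, IDH3G also the NF-Y box and IDH3B the nuclear receptor half-site, while the HADHB window holds no match.

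Over the set, 32 of the 37 genes had 1 or more RefSeq windows (48 in all). GCGCNTGCG was in 10.4% of these windows (ACSL3, ETFB, IDH3A, IDH3G and SUCLA2) and in 6.54% of all 35114 windows of the same length. CCAATC was in 12.5% (CPT1C, CS, ETFB, FH, IDH3G and MDH1) and in 14.1% of all windows. AGGTCA was in 6.25% (IDH3B, MDH1 and SUCLA2) and in 12.1% of all windows, and the longer TCAAGGTCA, the element of estrogen-related receptors, which contains it, was in 0 of the 48 and 0.319% of all. A match is a description of letters in this window, and no match says only that these letters are not in it.

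Other genes of the pathway were read from lists of related genes. Of 30 further fatty acid handling genes, 27 reached 1 FPKM. In the cardiomyocytes 5 of these were at least 2-fold higher than at D10 (8.14% of all genes) and 0 lower (4.61%). FABP3, the fatty acid binding protein of heart muscle, had 409 FPKM in hESC, 75.7 at D1, 8.02 at D3, 52.7 at D10 and 395 FPKM in the cardiomyocytes. The last value was close to that of hESC. ACACB, which makes the malonyl-CoA that inhibits CPT1, had 47.3 FPKM in the cardiomyocytes and 10.7 FPKM at D10, and the fatty acid transporter SLC27A6 had 7.69 and 1.17 FPKM. Of 30 further genes of the citric acid cycle and its entry (of 31 listed), 6 were higher (8.14% of all genes) and 1 lower (4.61%). SDHC, a membrane anchor of succinate dehydrogenase, had 36.6 FPKM in the cardiomyocytes and 14.8 FPKM at D10, and 2 kinases that inhibit pyruvate dehydrogenase stood at 41.3 and 17.7 FPKM (PDK2) and at 42.7 and 18.2 FPKM (PDK3).

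Of 13 regulators of the pathway, 5 were higher in the cardiomyocytes than at D10 (8.14% of all genes) and 1 was lower (4.61%). PPARGC1A, a coactivator of mitochondrial genes, had 41.2 FPKM in the cardiomyocytes and 11.8 FPKM at D10. ESRRG, an estrogen-related receptor of oxidative tissues, had 29.7 FPKM in the cardiomyocytes and 9.28 FPKM at D10. KLF15, a factor of adult heart lipid metabolism, was the lower one, with 1.74 FPKM in the cardiomyocytes and 6.94 FPKM at D10. Of 4 genes of ketone body use, OXCT1, which activates ketone bodies for oxidation, was higher, with 37.0 FPKM in the cardiomyocytes and 11.4 FPKM at D10. BDH1, a dehydrogenase that interconverts ketone bodies, had 4.95 FPKM in the cardiomyocytes and 4.03 FPKM at D10.

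The sorts address how the mesoderm fractions differ from the other cells of the same day. The authors' deposited table of the D3 sort lists genes with a q-value under 0.05 only, and it holds 5 of the 37 members (13.5%), against 29% or 27.9% of all genes, by a lower and an upper estimate of how many genes were tested. In this authors' deposited table, 2 members were higher in PMESO cells and 3 lower, while 55.2% of all 4648 listed genes were higher. The authors' deposited table gives ETFB 33.6 FPKM in PMESO cells and 21.4 FPKM in ROR2-negative cells, a log2 fold change of 0.65 with a q-value of 0.000375. SUCLG1, in the authors' deposited table, had 13.4 FPKM in PMESO cells and 8.98 FPKM in ROR2-negative cells (log2 fold change 0.57, q-value 0.000709). Unsorted D3 cells stood at 12.5 FPKM in the time-course table, which was normalized apart from the sort tables.

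The 3 lower members all act before the spiral. In the authors' deposited table CPT1A had 3.11 FPKM in PMESO cells and 6.92 FPKM in ROR2-negative cells (log2 fold change -1.16, q-value 0.000375). ACSL1 had 1.52 FPKM in PMESO cells and 2.70 FPKM in ROR2-negative cells in the authors' deposited table (-0.83, q-value 0.00102). The authors' deposited table gives CD36 0.362 FPKM in PMESO cells and 0.924 FPKM in ROR2-negative cells (-1.35, q-value 0.0172), with both levels under 1 FPKM. The same authors' deposited table lists all 5 stem cell markers as lower and all 6 primitive streak and mesoderm markers, ROR2 itself among them, as higher in PMESO cells, and the part of this in the members' differences was not tested.

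At D4, the authors' deposited table holds 10 of the 37 members (27.0%), against 41.8% or 36.3% of all genes by the lower and upper estimates. In that authors' deposited table, 7 members were higher in CMESO cells and 3 lower, while 47.5% of its 4825 genes were higher. ACSL1 showed the largest difference among them: the authors' deposited table gives 5.48 FPKM in CMESO cells and 1.47 FPKM in PDGFRa-negative cells, a log2 fold change of 1.90 with a q-value of 0.000269. Its sign was thus opposite at D3 and at D4, a difference that was not tested. DECR1 had 34.8 FPKM in CMESO cells and 18.3 FPKM in PDGFRa-negative cells in the authors' deposited table (0.93, q-value 0.00851). Both electron transfer subunits were higher: in the authors' deposited table ETFB had 32.8 FPKM in CMESO cells and 19.5 FPKM in PDGFRa-negative cells (0.75, q-value 0.000269), and ETFA 67.7 and 50.9 FPKM (0.41, q-value 0.00260).

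The cycle genes went both ways at D4. SUCLG1 had 31.5 FPKM in CMESO cells and 21.1 FPKM in PDGFRa-negative cells in the authors' deposited table (0.58, q-value 0.000269), so that it was higher in the positive population of both sorts, as was ETFB. FH had 50.2 FPKM in CMESO cells and 37.5 FPKM in PDGFRa-negative cells in the authors' deposited table (0.42), and ACSL3 50.1 and 34.5 FPKM (0.54). MDH2 was lower, with 32.0 FPKM in CMESO cells and 47.6 FPKM in PDGFRa-negative cells in the authors' deposited table (-0.57, q-value 0.000269). DLST was lower by less in the authors' deposited table, with 32.5 FPKM in CMESO cells and 40.5 FPKM in PDGFRa-negative cells (-0.32, q-value 0.0329). ACAA2 was lower by the most, with 50.3 FPKM in CMESO cells and 88.6 FPKM in PDGFRa-negative cells in the authors' deposited table (-0.82, q-value 0.000269), and its listed locus, of 411595 bases, is the longest among the listed members. Among markers, 7 of 8 cardiomyocyte genes were higher and 4 of 5 stem cell genes lower in CMESO cells in the authors' deposited table, and their part in these differences was not tested. For the members that a sort table does not list, nothing can be said of a difference.

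**Figure D4:**
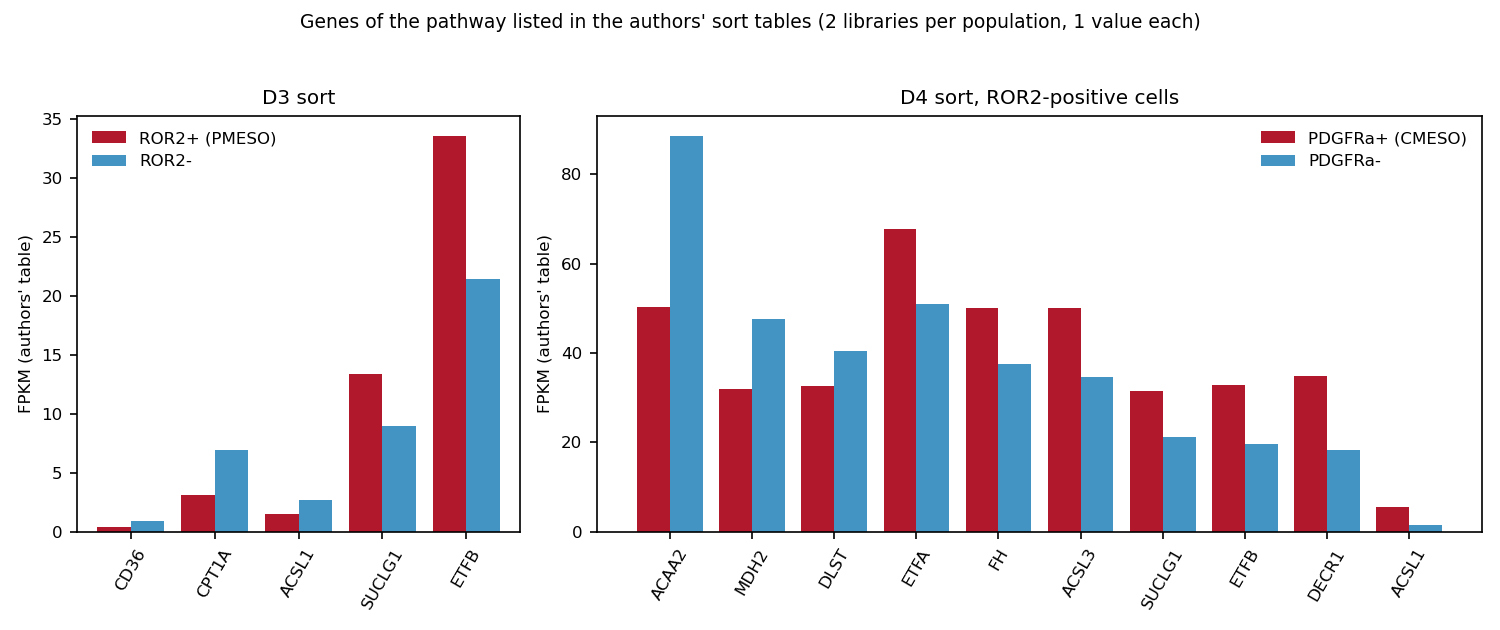
FPKM of the members listed in the authors' deposited tables, as bars for the positive population (red, left) and the negative population (blue, right) of the D3 sort and of the D4 sort, in order of the authors' log2 fold change. At D3 the red bar is the lower one for 3 of 5 genes, and at D4 it is the higher one for 7 of 10.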

How the data were processed

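The samples were 30 libraries of H7 cells in 15 groups of 2. Per the labels' protocols, ribosomal RNA was removed from 500 ng of RNA, 10 cycles of PCR followed, and reads were paired, 100 nt each. Bowtie2 2.1.0.0, TopHat2 2.0.8b, Cufflinks and the build hg19 come from the submitters' processing notes. The annotation, strandedness and column scaling were not given in the sources used here. The time-course values deposited by the authors carry no unit in their header and were read as FPKM from those notes and from the values; they pool both libraries of a time point. Per the file headers, the sort tables hold the authors' FPKM of each population, the log2 fold change and the ratio, the test score and both p-value and q-value, with q-values up to 0.0497 (D3) and 0.0499 (D4) only. The number of genes the authors tested was estimated from their q-values and p-values as 16013 to 16649 at D3 and 11548 to 13305 at D4. With libraries unlabelled as separate cultures, these p-values may measure technical spread.

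From the 41495 deposited FPKM entries, 21715 of at least 1 FPKM at 1 or more time points were kept, and differences were taken on log2(FPKM + 1) and called at 2-fold, with no test. Rescaled columns were shifted by the median of 7386 genes of at least 5 FPKM in every column. Time-course depth is known only as a relative estimate, so no counting interval is given. The members and all lists were chosen with earlier results of these data known. Values at every time point are given for members 2-fold different between cardiomyocytes and hESC, cardiomyocytes and D10, or D10 and D4, or listed in a sort, and for up to 3 genes of each further list with the largest difference between cardiomyocytes and D10, values at chosen time points. The values of 1 gene of these lists are not reported here. Exon overlaps came from GENCODE 29, which belongs to another build, and promoters from RefSeq on GRCh38.p14 for all members but ETFDH, LPL, DECR1, OGDH and CPT1B. Alternatives were a pseudocount of 0.1, rescaled columns, a threshold of 1.5-fold, other time points, a q-value under 0.01 and, chosen after seeing the data, members that reached 10 FPKM. The calculations were tested on simulated data and used Python 3.11.15, pandas 2.3.3, numpy 2.4.6 and matplotlib 3.10.9.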

Additional observations from a re-analysis of the deposited data

How the results depend on the processing

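No paired analysis was possible because the columns carry no replicate numbers, and leaving out a library could not give a value because both libraries of a group share 1 column. Of the 54 calls of single members across the 7 time-course comparisons, 43 held with rescaled columns, and the other 11 kept their direction below 2-fold. A pseudocount of 0.1 can only widen a difference, so all 54 had to hold with it and this shows nothing about their firmness. With D1 in place of hESC as the start, 7 members were higher and 3 lower in the cardiomyocytes, and 4 members higher than in hESC stood below D1, by log2 differences of -0.62 (ACSL1), -0.75 (CPT1A), -0.37 (CPT2) and -0.26 (ACADM). Here the start itself was changed. A pseudocount of 0.1 gave 3 lower in cardiomyocytes against hESC, 1 lower at D10 against D4 and 5 higher in cardiomyocytes against D15. Rescaled columns gave 7 lower at D4 against D1, 0 lower at D15 against D10, 1 higher and 1 lower in cardiomyocytes against D15, and 5 members highest at D1. A threshold of 1.5-fold gave 13 higher and 7 lower in cardiomyocytes against hESC, in place of 11 and 1. It gave 13 higher and 1 lower at D10 against D4, and 1 higher and 7 lower at D15 against D10. In the cardiomyocytes it gave 22 higher and 1 lower against D15, and 13 higher and 1 lower against D10. Shares over all genes were not computed at 1.5-fold, at a pseudocount of 0.1 or with other time points. Among the 32 members that reached 10 FPKM, 2 were lower at D1 against hESC, 2 higher at D10 against D4, 0 higher and 1 lower at D15 against D10, and 0 lower in cardiomyocytes against D10. With D3 in place of D4, 9 were higher at D10, but the median member differed by 0.08 in place of 0.36. With D8 in place of D10, 6 were lower at D15 and 0 in the cardiomyocytes. Asking for 1.5-fold in the sorts left 1 higher at D3, and 3 higher and 1 lower at D4. The cause of these changes was not tested. Levels under 1 FPKM, as in CD36, LPL and ACADL, rest on few fragments.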

Other observations

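A list of general mitochondrial genes differed from the members in its values. The list holds 8 genes of mitochondrial import, channels and folding (TOMM20, TOMM40, VDAC1, VDAC2, HSPD1, HSPA9, PHB and PHB2). Of these, 0 were at least 2-fold higher in the cardiomyocytes than in hESC (18.7% of all genes) and 5 lower (16.9%). Their median log2 difference was -1.26, where the 37 members had a median of 0.30. Their summed level was 2014 FPKM in hESC, 2468 at D1, 774 at D4, 858 at D10, 447 at D15 and 778 FPKM in the cardiomyocytes. HSPD1, the mitochondrial chaperonin, had 214 FPKM in the cardiomyocytes and 747 FPKM in hESC. VDAC1, the main channel of the outer membrane, had 128 FPKM in the cardiomyocytes and 172 FPKM in hESC. From D1 to D4 both sets stood lower at the later time. At D4, 7 of the 8 and 13 of the 37 members were at least 2-fold lower (11.9% of all genes), with medians of -1.70 and -0.58. At D15 the medians were -0.98 and -0.19 against D10. In the cardiomyocytes they were 0.64 and 0.76 against D15, where 2 of the 8 and 3 of the 37 were higher (7.23% of all genes). Against D10, 0 of the 8 and 5 of the 37 were higher in the cardiomyocytes (8.14% of all genes), with medians of -0.30 and 0.38. All of these values are as deposited. The shift between columns was -0.35 for D4 over D1, -0.47 for D15 over D10 and 0.42 for cardiomyocytes over D15. The difference between the lists was not tested.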
